A study of Mus musculus with 18 samples.

Results

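Mouse small intestinal crypts were examined for the genes of 5 families of oxidoreductases that act on aldehydes, alcohols and retinoids, as Prmt1, the main asymmetric arginine methyltransferase, was deleted in the adult epithelium. The members are the genes of the count table whose symbol starts with Aldh (aldehyde dehydrogenases), Akr (aldo-keto reductases), Adh (alcohol dehydrogenases), Rdh (retinol dehydrogenases) or Dhrs (short-chain dehydrogenases) followed by a digit, without the 2 pseudogenes whose symbol ends in -ps. There are 69 such genes among 55335, and 58 of them had enough reads to be tested. The KO mice carried Prmt1 fl/fl with Vil-CreERT2, a tamoxifen-activated Cre recombinase driven by the villin promoter in intestinal epithelial cells. The WT mice were Prmt1 fl/fl littermates without Cre, so that the floxed alleles and tamoxifen were shared by all groups, and the loss of Prmt1 and the presence of active Cre cannot be told apart. Mice were 8 to 12 weeks old and received 2 mg tamoxifen per day for up to 5 days, the day 2 mice being taken before the course was complete. Crypts were collected 2, 7 or 14 days after the first injection from 3 mice of each genotype, and each of the 18 libraries came from 1 mouse.

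Retinol taken up from the diet is esterified and stored, or it is oxidised to retinaldehyde by retinol dehydrogenases and alcohol dehydrogenases. Retinaldehyde is oxidised further to retinoic acid, the ligand of the nuclear retinoid receptors, by the retinaldehyde dehydrogenases of the Aldh1a group, and it is turned back into retinol by retinaldehyde reductases. The other aldehyde dehydrogenases and the aldo-keto reductases remove reactive aldehydes from lipid peroxidation, food and amino acid breakdown, and several aldo-keto reductases are known targets of NRF2, the factor of the antioxidant response. The gut epithelium carries out both tasks, with enterocytes handling dietary vitamin A.

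The promoters of 4 members that changed on KO are shown for orientation, as the 250 bases before the RefSeq transcription start (GRCm38.p6, the same assembly as mm10), 5′ to 3′ on the strand of the gene. Akr1b8 and Dhrs9 were higher in KO crypts, and Akr7a5 and Rdh7 were lower. Capitals mark AGGTCA, the core of nuclear receptor sites, and TATAAA, each searched on both strands. The Akr1b8 promoter lies at chr6:34353896-34354145 (plus strand), that of Dhrs9 at chr2:69380212-69380461 (plus strand), that of Akr7a5 at chr4:139310494-139310743 (plus strand) and the Rdh7 start with a capital motif at chr10:127889248-127889497 (minus strand).
Akr1b8: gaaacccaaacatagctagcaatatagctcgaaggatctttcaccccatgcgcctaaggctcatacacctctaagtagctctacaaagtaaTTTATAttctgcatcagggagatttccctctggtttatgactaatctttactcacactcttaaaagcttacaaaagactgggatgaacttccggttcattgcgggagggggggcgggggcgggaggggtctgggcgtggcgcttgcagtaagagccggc
Dhrs9: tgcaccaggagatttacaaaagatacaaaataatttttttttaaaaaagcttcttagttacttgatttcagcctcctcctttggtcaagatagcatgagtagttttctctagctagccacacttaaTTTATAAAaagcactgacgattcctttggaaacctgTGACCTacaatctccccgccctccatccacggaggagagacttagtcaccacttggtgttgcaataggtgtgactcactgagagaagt
Akr7a5: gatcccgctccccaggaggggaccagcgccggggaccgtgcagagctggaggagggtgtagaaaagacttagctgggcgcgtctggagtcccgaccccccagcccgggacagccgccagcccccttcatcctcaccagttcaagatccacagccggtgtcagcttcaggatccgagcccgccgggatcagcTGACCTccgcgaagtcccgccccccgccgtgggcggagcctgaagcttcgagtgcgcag
Rdh7: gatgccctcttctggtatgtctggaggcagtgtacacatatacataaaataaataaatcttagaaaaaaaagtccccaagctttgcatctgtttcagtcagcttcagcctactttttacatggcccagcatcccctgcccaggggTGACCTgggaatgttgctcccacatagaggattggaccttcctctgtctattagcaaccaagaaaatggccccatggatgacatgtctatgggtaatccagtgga
The Akr1b8 window holds TATAAA on the reverse strand, starting 159 bases before the start. Dhrs9 holds AGGTCA 88 bases before it and a pair of overlapping TATAAA matches, Akr7a5 holds AGGTCA 59 bases before it, and Rdh7 holds AGGTCA 105 bases before it, all 3 AGGTCA matches being on the reverse strand. The table lists another Rdh7 start, with its window at chr10:127888734-127888983, which holds none of these motifs, and the start shown was chosen because it holds one. Promoters were found for 55 members, 15 of them among the 18 called at day 7. AGGTCA was in 3 of 8 promoters of members called higher at day 7, in 4 of 10 promoters of members called lower, in 14 of the 62 promoters of all members (22.6%) and in 14.0% of all 32851 promoters. TATAAA was in 2 of the 8, 1 of the 10, 10 of the 62 (16.1%) and 12.4% of all promoters. The core of the antioxidant response element, TGACNNNGC, was in none of these 18 promoters, in 5 of the 62 promoters of all members and in 10.2% of all promoters.

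The 18 libraries held 12844642 to 31493484 counts, and 0.237% to 0.454% of them fell on the members. Levels are given as CPM (counts scaled to the library's size) after TMM normalisation, as mean ± SD of 3 libraries, and levels of different genes are compared as CPM per kilobase of exon. Prmt1 itself stood at 20.2 to 30.6 CPM in the 9 WT libraries and at 13.1 to 17.4 CPM in the 9 KO libraries, with no overlap on any day. WT replicate 1 of day 14 stood apart. It was the shallowest library, it was the lowest of the 9 WT libraries for 36 of the 58 tested members, and its 12 enterocyte markers summed to 5700 CPM against 12239 and 14361 CPM in the other libraries of its group. Calls at day 14 that changed without it are given beside the gene. KO replicate 1 of day 7 also stood apart from the other KO libraries of its day. Its Paneth cell markers summed to 1402 CPM against 3957 and 3757, its stem cell markers to 572 CPM against 1187 and 1261, its tuft cell markers to 29.9 CPM against 60.3 and 66.9, and its NRF2 target genes to 4419 CPM against 2968 and 2073. It held the highest KO value of day 7 for Akr1b8, Akr1c19, Aldh1a1, Aldh3b1, Aldh3b2, Aldh7a1 and Dhrs9. Without it 14 of the 18 members called at day 7 were called, the others being Aldh1a1, Aldh3b1, Aldh7a1 and Rdh16, and the log2 fold change was 3.92 for Akr1b8 (adjusted p = 2.86e-05), 2.36 for Akr1c19 (1.02e-05), 1.84 for Aldh3b2 (0.00176) and 0.93 for Dhrs9 (0.018). In bulk crypts, fewer cells of a type and less RNA per cell cannot be told apart.

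At day 2 no member was called between KO and WT, where 7 of 21349 tested genes (0.0328%) passed an adjusted p of 0.05 (quasi-likelihood test of edgeR, Benjamini-Hochberg adjustment over all tested genes). Below, called means called by this test with all libraries fitted, unless another setting is named. DESeq2's Wald test called no member at day 2 either, and 1 member had an unadjusted p under 0.05. At day 7 the test called 18 of 58 members. Adh6b and Aldh3b3 passed the count filter only through KO libraries, where they are high, so their calls support nothing, and shares without them are given over the 56 members that passed it in 3 or more WT libraries. Of the 18, 10 were higher in KO (17.2% of the tested members, against 7.11% of all genes tested) and 8 were lower (13.8%, against 10.2%). Over the 56 members these were 8 higher (14.3%) and 8 lower (14.3%). At day 14 it called 12 members, 6 higher (10.3%, against 3.23% of all genes) and 6 lower (10.3%, against 4.69%), and over the 56 members 4 higher (7.14%) and 6 lower (10.7%). The calls over all genes rest on single libraries too. Without KO replicate 1 of day 7 there were 832 higher and 1219 lower in place of 1517 and 2173, and 15 members. Without WT replicate 1 or WT replicate 2 of day 7 there were 952 and 1003 higher. Without KO replicate 1 or KO replicate 3 of day 14 there were 1091 and 1041 calls over all genes in place of 1690. The 1001 lower at day 14 became 593, 632 and 563 without KO replicate 1, 2 or 3, and the 689 higher became 456 without WT replicate 2. Without WT replicate 3, KO replicate 1 or KO replicate 3 of day 14 the test called 7, 6 and 7 members. All 12 were among the 18 of day 7 and had the same direction there. The median log2 fold change of the 58 members was 0.04 at day 7 and 0.06 at day 14, against 0.02 and 0.00 over all tested genes, and that of the 56 was 0.01 and 0.04. The KO libraries lay all above or all below the WT libraries for 28 members at day 7 (48.3%, against 33.6% of all genes) and for 21 at day 14 (36.2%, against 26.5%), and for 26 (46.4%) and 19 (33.9%) of the 56.

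**Figure D1:**
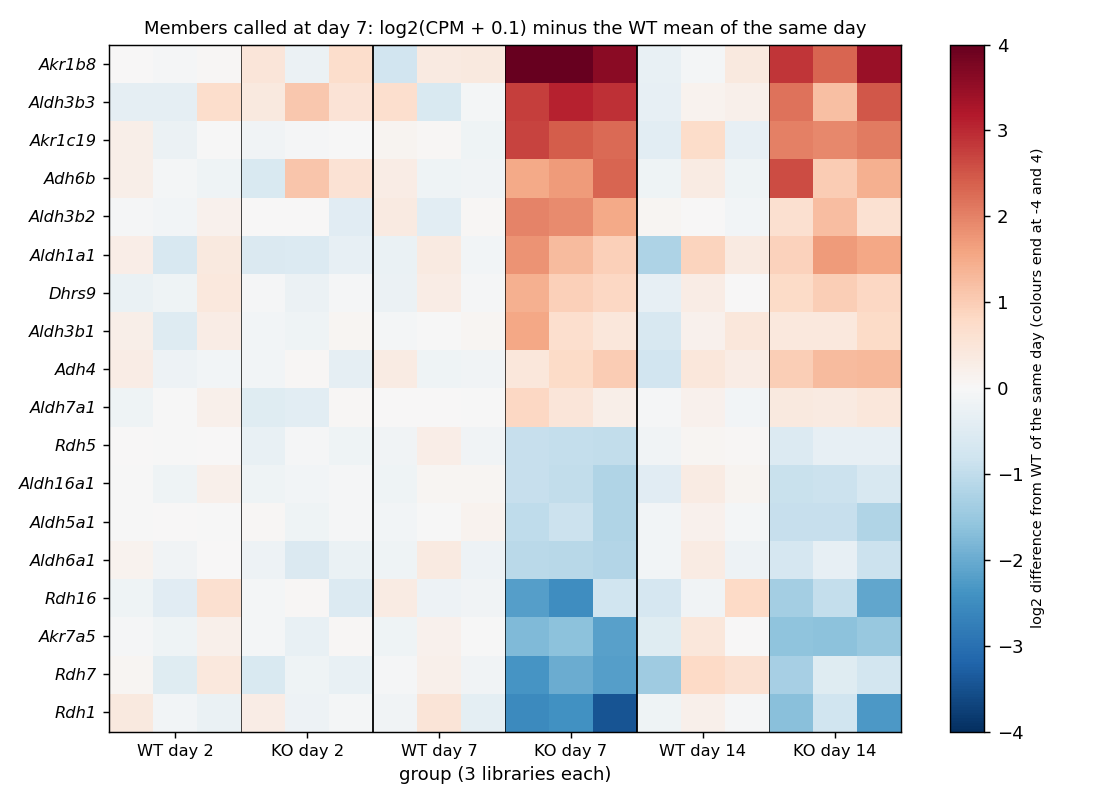
Heatmap of the 18 members called at day 7 in the 18 libraries. Rows are genes ordered by the day 7 fold change, columns are libraries by group, and colour is log2(CPM + 0.1) minus the WT mean of the same day, red above and blue below. KO libraries of day 7 and day 14 share the direction in each row, and the day 2 libraries are pale.

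Among the retinol dehydrogenases, which carry retinol to retinaldehyde, 9 genes were tested. At day 7 4 fell and 1 rose, and at day 14 2 fell and 1 rose. Over all tested genes 10.2% were called lower and 7.11% higher at day 7, and 4.69% and 3.23% at day 14. The day 14 calls, of Rdh1, Rdh16 and Dhrs9, were each lost without single libraries, as given below. The median log2 fold change of the 9 was -0.96 at day 7 and -0.38 at day 14. Of the 9, Rdh16f1 shares exons with Rdh9 and Rdh1, so their counts overlap. Rdh7 was the most abundant of them, at 29.5 CPM per kilobase over all libraries. Its level was 52.1, 62 and 49.1 CPM in the WT libraries of day 7 and 10.5, 13.6 and 11.8 CPM in the KO libraries, without overlap. It fell by 2.18 ± 0.42 (SE) on the log2 scale at day 7 (adjusted p = 0.00257). At day 14 the WT libraries read 17.1, 79.4 and 69.3 CPM and the KO libraries 18.2, 32.7 and 27.1 CPM. The low WT value is that of replicate 1. The log2 fold change was -1.10 ± 0.40 (adjusted p = 0.12), and without that library it was -1.51 (adjusted p = 0.000479).

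Rdh1, a microsomal retinol dehydrogenase, was scarce. It had 0.899, 1.47 and 0.745 CPM in WT and 0.0889, 0.105 and 0 CPM in KO at day 7. These KO values rest on 5 counts against 65 in WT, a WT to KO ratio of 14.5 with a 95% counting interval of 5.9 to 46.1, and the fitted change was called (adjusted p = 0.000141). At day 14 the WT libraries had 1.21, 1.62 and 1.34 CPM and the KO libraries 0.369, 0.757 and 0.202 CPM, still without overlap. Rdh1 fell by 1.65 ± 0.44 on the log2 scale at day 14 (adjusted p = 0.0252). That call was lost without WT replicate 2 (adjusted p = 0.0844), WT replicate 3 (0.0554), KO replicate 1 (0.11) or KO replicate 3 (0.126).

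Rdh16, its neighbour on chromosome 10, had 4.35, 2.94 and 3.11 CPM in WT and 0.667, 0.526 and 1.92 CPM in KO at day 7. On day 14 the values were 2.49, 3.63 and 7 CPM in WT and 1.48, 2.02 and 0.877 CPM in KO. All KO libraries were below all WT libraries on both days. It fell by 1.77 ± 0.46 on the log2 scale at day 7 (adjusted p = 0.0135) and by 1.59 ± 0.46 at day 14 (adjusted p = 0.0399). The day 7 call was lost without WT replicate 1 (0.06), KO replicate 1 (0.0731) or KO replicate 2 (0.0655). The day 14 call was lost with the replicate number as a block (adjusted p = 0.108) and without any 1 of 5 libraries (0.0501 to 0.189), WT replicate 1 being the exception.

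Rdh5, the cis-retinol dehydrogenase known from the visual cycle, had 18.5 ± 3.13 CPM in WT and 9.48 ± 0.219 CPM in KO at day 7. It fell by 0.96 ± 0.13 on the log2 scale (adjusted p = 5.98e-05), and at day 14 the change was -0.41 ± 0.13 (adjusted p = 0.067). Rdh16f2 had a log2 fold change of -1.15 ± 0.44 at day 7 (adjusted p = 0.0805) and of -0.22 at day 14. It was called at day 7 without a filter on low counts (adjusted p = 0.0257), under the replicate block (0.039) and without KO replicate 3 (0.032). Rdh10, the main retinol dehydrogenase of embryonic retinoid synthesis, had log2 fold changes of -0.12 and -0.21 and was not called.

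Dhrs9 was the 1 gene of this role that rose. It had 2.63, 3.83 and 2.98 CPM in WT and 8.45, 6.11 and 5.59 CPM in KO at day 7, and 2.57, 3.99 and 3.29 CPM in WT and 5.53, 6.5 and 5.87 CPM in KO at day 14. The groups did not overlap on either day. The log2 fold change was 1.10 ± 0.23 at day 7 (adjusted p = 0.00244) and 0.84 ± 0.23 at day 14 (adjusted p = 0.0288). The day 14 call was lost without any 1 of 5 libraries (adjusted p 0.0538 to 0.105), WT replicate 2 being the exception.

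None of the 6 retinaldehyde reductases, which take retinaldehyde back to retinol (Dhrs3, Dhrs4 and Rdh11 to Rdh14), was called on any day. Their log2 fold changes lay between -0.26 and 0.13 at day 7 and between -0.38 and 0.16 at day 14. Of the retinaldehyde dehydrogenases, which make retinoic acid, Aldh1a1 was by far the most abundant, at 50 CPM per kilobase against 0.591 for Aldh1a2, 0.137 for Aldh1a3 and 0.0243 for Aldh8a1, which had too few counts to be tested. Aldh1a1 had 109, 169 and 123 CPM in WT and 459, 319 and 256 CPM in KO at day 7. On day 14 Aldh1a1 had 50.2, 220 and 154 CPM in WT and 224, 393 and 347 CPM in KO, so that the groups were again apart, by 220 against 224 CPM. The log2 fold change was 1.37 ± 0.41 at day 7 (adjusted p = 0.0312) and 1.18 ± 0.41 at day 14 (adjusted p = 0.0936). At day 2 WT had 321 ± 110 CPM and KO 220 ± 20.5 CPM, and the groups overlapped.

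The day 7 call of Aldh1a1 was lost without WT replicate 1 (adjusted p = 0.114), WT replicate 3 (0.0947), KO replicate 1 (0.137) or KO replicate 2 (0.0562). No label pairs the KO and WT libraries. With the replicate number as a block Aldh1a1 was called at day 14 too (log2 fold change 1.38, adjusted p = 0.0118). Without WT replicate 2 of day 14 it was also called, at 1.65 (adjusted p = 0.0378). The 12 enterocyte markers moved with it. Their sum was 11541 to 14165 CPM in WT and 16552 to 24719 CPM in KO at day 7, and 5700 to 14361 CPM in WT and 12847 to 23789 CPM in KO at day 14. Their part in the result was not tested. Aldh1a3 had log2 fold changes of -0.92 ± 0.41 at day 2 (adjusted p = 0.999, unadjusted p = 0.0353, with all KO libraries below all WT libraries), -0.95 ± 0.38 at day 7 (adjusted p = 0.0978) and 0.00 at day 14, and without KO replicate 1 of day 7 it was called at -1.37 (adjusted p = 0.0487). Aldh1a2 had 2.02 ± 1.4 CPM in WT and 0.898 ± 1.13 CPM in KO at day 2, a log2 fold change of -1.07 ± 0.72 (adjusted p = 0.999), and it overlapped on each day.

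Of 19 further genes of retinoid uptake, storage, binding and clearance, 14 were tested. At day 7 5 rose and 3 fell, and at day 14 2 rose and 3 fell, with medians of 0.18 and 0.29 on the log2 scale. Over all tested genes 7.11% were called higher and 10.2% lower at day 7, and 3.23% and 4.69% at day 14. Lrat, which esterifies retinol for storage, went from 15.5 ± 3.04 CPM in WT to 3.08 ± 0.735 CPM in KO at day 7 and fell by 2.33 ± 0.21 on the log2 scale (adjusted p = 5.34e-07). At day 14 it fell by 1.66 ± 0.20 (adjusted p = 4.2e-05). Retsat, the retinol saturase, fell by 1.37 and 1.01 on days 7 and 14, and Bco2, which cleaves carotenoids, fell by 1.33 and 0.82, all 4 called (adjusted p = 0.0018, 0.0245, 0.000556 and 0.0301). Rbp2, the retinol-binding protein of enterocytes, rose from 311 ± 3.29 to 876 ± 320 CPM at day 7 (log2 fold change 1.50, adjusted p = 0.0158). Rbp4, Scarb1 and Fabp5 rose at day 7 as well, and Ttr rose at day 14. Cyp26b1, which degrades retinoic acid, is among those counted as higher on both days, but it passed the count filter only through KO libraries and its calls support nothing. Its 3 libraries summed to 10 counts in WT and 34 in KO at day 7 and to 2 and 29 at day 14. Of 5 tested retinoid receptors, Rxrb fell at day 7 (log2 fold change -0.44, adjusted p = 0.0214), and none was called at day 14.

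**Figure D2:**
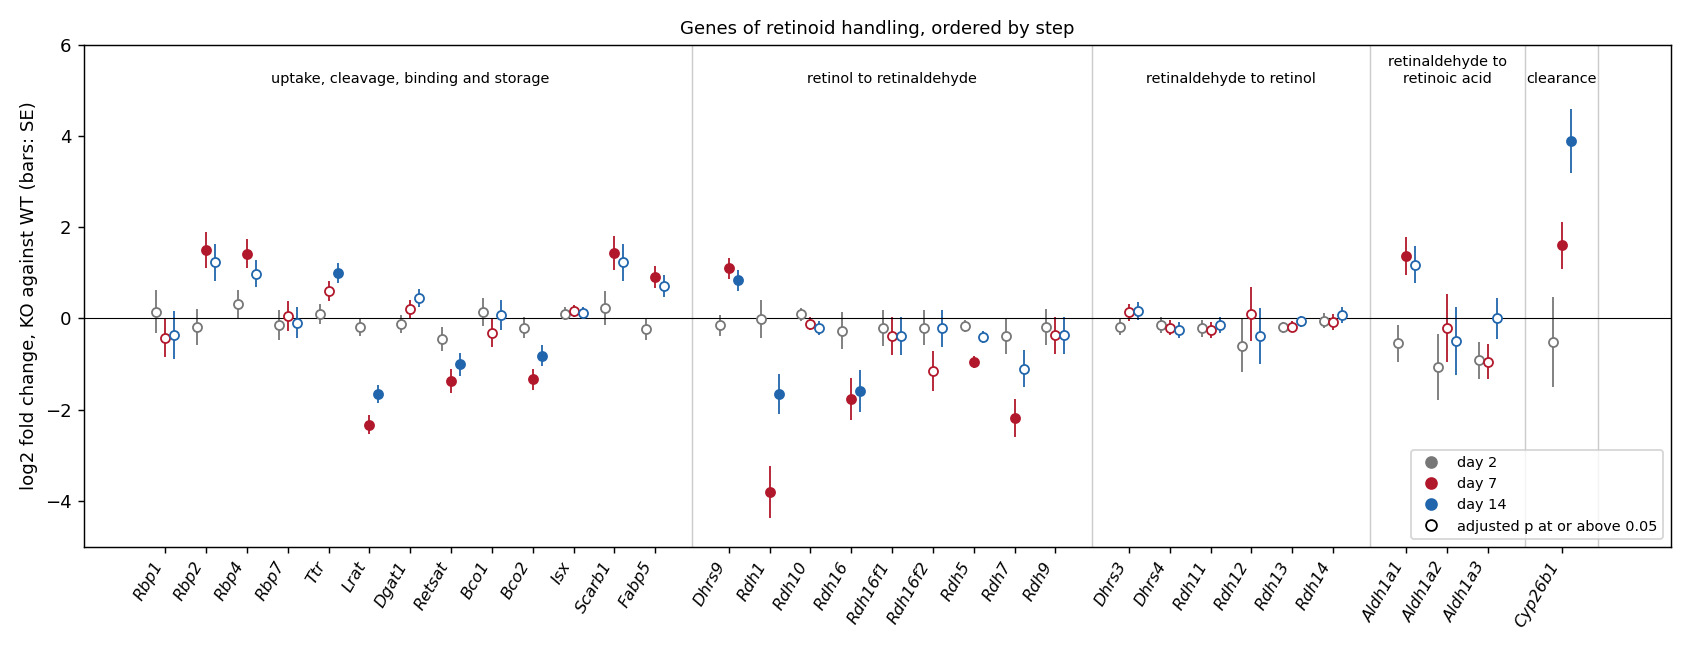
KO against WT log2 fold change with its SE (vertical axis) for tested genes of retinoid handling, ordered by step. Shown are genes of uptake, storage, binding and clearance, retinol dehydrogenases, retinaldehyde reductases and retinaldehyde dehydrogenases. The alcohol dehydrogenases, Adh4 among them, and the retinoid receptors are not shown. Colours are day 2 (grey), day 7 (red) and day 14 (blue). Filled points have an adjusted p under 0.05. Lrat, Retsat, Bco2, Rdh1, Rdh5, Rdh7 and Rdh16 lie below 0 at day 7, whereas Rbp2, Dhrs9 and Aldh1a1 lie above it and the 6 retinaldehyde reductases lie near it.

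Among the aldo-keto reductases, Akr1b8 and Akr1c19 rose and Akr7a5 fell on both days. Akr1b8 (chr6:34354119-34368463, plus strand), which reduces lipid and retinoid aldehydes, had 4.03, 9.01 and 9.15 CPM in WT and 167, 133 and 85.2 CPM in KO at day 7. On day 14 the level was 4.31, 5.05 and 7.09 CPM in WT and 39.6, 27.1 and 59.5 CPM in KO, and at day 2 it had 9.33 ± 0.377 CPM in WT and 12.1 ± 3.82 CPM in KO. Every KO library of days 7 and 14 was above every WT library of any day. The fold was 17.5 at day 7 (log2 fold change 4.13 ± 0.38, adjusted p = 3.65e-06) and 7.58 at day 14 (2.92 ± 0.37, adjusted p = 0.000184). Its neighbours Akr1b3, Akr1b10 and Akr1b7 were not called on either day. Akr1b7, named after its values were seen, was called at day 14 under the replicate block (log2 fold change 0.89, adjusted p = 0.0432).

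Akr1c19 (chr13:4228700-4252843, plus strand) had 110, 105 and 89 CPM in WT and 659, 539 and 485 CPM in KO at day 7. Day 14 gave 62.2, 139 and 66.3 CPM in WT and 334, 314 and 352 CPM in KO. The lowest KO library was more than 2 times the highest WT library on both days. The fold was 5.54 at day 7 (log2 fold change 2.47 ± 0.24, adjusted p = 1.5e-06) and 3.73 at day 14 (1.90 ± 0.24, adjusted p = 4.99e-05). The other 4 tested members of the Akr1c group, Akr1c12, Akr1c13, Akr1c14 and Akr1c21, had log2 fold changes of 0.29 to 0.79 at day 7 and 0.13 to 0.86 at day 14 and were not called by edgeR with all libraries fitted. Without KO replicate 3 of day 7, Akr1c12 (log2 fold change 0.74, adjusted p = 0.00853) and Akr1c13 (1.06, adjusted p = 0.0194) were called. At day 7 DESeq2's Wald test also called Akr1c13 (0.79, adjusted p = 0.0422), and Akr1c12 was called without a filter on low counts (0.50, adjusted p = 0.0243). Akr1c14, also named after its values were seen, was called under the replicate block at day 14 (0.87, adjusted p = 0.00734) and at day 7.

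Akr7a5 (chr4:139310744-139318426, plus strand), which reduces succinic semialdehyde and aflatoxin dialdehyde, had 49.1, 62.6 and 55.1 CPM in WT and 16.3, 17.7 and 12.2 CPM in KO at day 7. On day 14 the gene had 40.3, 78.5 and 57.8 CPM in WT and 18.6, 18.1 and 19.6 CPM in KO. No KO library of these days reached the lowest WT library. The gene was 3.6-fold lower at day 7 (log2 fold change -1.85 ± 0.19, adjusted p = 3.6e-06) and 3.15-fold lower at day 14 (-1.66 ± 0.19, adjusted p = 2.73e-05). The 3 genes were called at days 7 and 14 in each of the 6 fits that left out 1 library of the day. Akr1a1, the general aldehyde reductase, had 105 CPM per kilobase and log2 fold changes of -0.06 and -0.12.

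**Figure D3:**
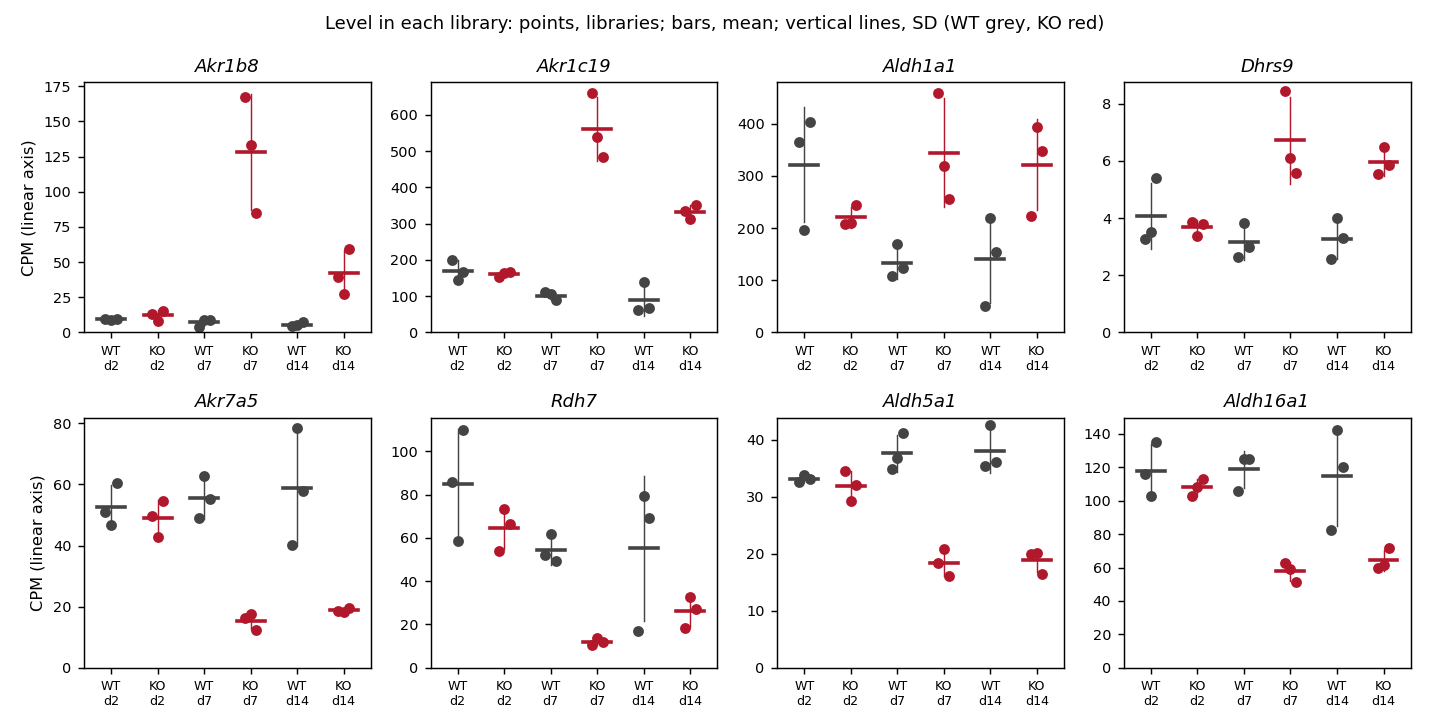
CPM on linear axes in each library for Akr1b8, Akr1c19, Aldh1a1 and Dhrs9 (top, higher in KO) and Akr7a5, Rdh7, Aldh5a1 and Aldh16a1 (bottom, lower in KO). Points are libraries, horizontal bars means and vertical lines SD, WT in grey and KO in red. KO and WT overlap at day 2 and are apart at day 7, and Aldh1a1 and Rdh7 show wide WT spread at day 14.

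Of the 6 alcohol dehydrogenases, which lie side by side on chromosome 3, Adh4 rose on both days, Adh6b was called on both days but passed the count filter only through KO libraries, and Adh1, Adh5, Adh6a and Adh7 were not called. Adh4, which oxidises retinol and long-chain alcohols, had 13.9, 9.9 and 9.99 CPM in WT and 15.3, 18.8 and 22.5 CPM in KO at day 7, and 6.57, 15.4 and 13.9 CPM in WT and 22.4, 27 and 27.7 CPM in KO at day 14. The groups did not overlap on these days, and the gap was wider at day 14. The log2 fold change was 0.74 ± 0.24 at day 7 (adjusted p = 0.037) and 1.08 ± 0.24 at day 14 (adjusted p = 0.0076). The day 7 call was lost without WT replicate 2 (0.127), WT replicate 3 (0.128), KO replicate 2 (0.0799) or KO replicate 3 (0.101).

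Adh6b was close to the detection limit. Its 3 libraries of each group summed to 11 counts in WT and 62 in KO at day 7, a ratio of 5.06 (95% counting interval 2.64 to 10.6), and to 1 and 16 counts at day 14, a ratio of 19.4 (3.01 to 813). In CPM these were 0.216, 0.128 and 0.131 against 0.623, 0.737 and 1.18 at day 7, and 0, 0.0395 and 0 against 0.58, 0.126 and 0.202 at day 14. All KO libraries of these days were above the WT libraries. The day 14 call was lost under the replicate block (adjusted p = 0.0547) and without WT replicate 1 (0.0586), WT replicate 3 (0.0835) or KO replicate 1 (0.174). Adh1, the class of alcohol dehydrogenase that clears ethanol, was the second most abundant member, at 108 CPM per kilobase. It had 194 ± 32.8 CPM in WT and 165 ± 16 CPM in KO at day 7 (log2 fold change -0.23, adjusted p = 0.671) and 182 ± 93.6 and 244 ± 68 CPM at day 14 (0.42, adjusted p = 0.481). Adh6a had log2 fold changes of 0.32 and 0.28, and Adh5, the formaldehyde-clearing class, of 0.03 and 0.01. Adh7, the class of the upper digestive tract, had 1.31 ± 0.526 CPM in WT and 1.27 ± 0.387 CPM in KO at day 7, with log2 fold changes of -0.01 and 0.47.

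The Aldh3b genes, which oxidise lipid aldehydes at membranes, lie in a row on chromosome 19. Aldh3b1 and Aldh3b2 rose at day 7, and Aldh3b3 was called higher on both days but passed the count filter only through KO libraries. Aldh3b3 had 0.144, 0 and 0.0438 CPM in WT and 0.934, 1.19 and 1.05 CPM in KO, that is 5 counts against 79, a ratio of 14.2 (95% counting interval 5.82 to 44.9). At day 14 it had 0, 0.0395 and 0.0463 CPM in WT and 0.474, 0.189 and 0.607 CPM in KO, 2 counts against 21, a ratio of 12.7 (3.11 to 112). No KO library of these days overlapped a WT library. The day 14 call was lost without any 1 of 5 libraries (adjusted p 0.0506 to 0.0751), KO replicate 2 being the exception. At day 2 WT had 3 counts and KO had 6, too few for a fold. Aldh3b2 rose from 0.471 ± 0.146 to 1.86 ± 0.337 CPM at day 7 (log2 fold change 1.93 ± 0.31, adjusted p = 0.000246), and at day 14 it was not called (0.98 ± 0.33, adjusted p = 0.0791). Aldh3b1, the abundant one of the 3, rose from 10.5 ± 0.598 to 20.6 ± 8.71 CPM at day 7 (0.97 ± 0.27, adjusted p = 0.0197). That call was lost without WT replicate 1 (0.0718), WT replicate 2 (0.064) or KO replicate 1 (0.138). Aldh3a2, the fatty aldehyde dehydrogenase, was not called.

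Of the 12 tested aldehyde dehydrogenases of small aldehydes, amino acids, GABA and folate, 3 fell on both days and 1 rose at day 7. Among all tested genes 10.2% were called lower at day 7 and 4.69% at day 14, and 7.11% were called higher at day 7. Aldh5a1, which oxidises succinic semialdehyde in the last step of GABA breakdown, had 34.8, 36.7 and 41.2 CPM in WT and 18.3, 20.8 and 16.1 CPM in KO at day 7, and 35.4, 42.5 and 36.1 CPM in WT and 19.9, 20.1 and 16.5 CPM in KO at day 14. No KO library exceeded 20.8 CPM and no WT library was under 34.8 CPM on these days. It was 2.04-fold lower at day 7 (log2 fold change -1.03 ± 0.12, adjusted p = 1.83e-05) and 2.02-fold lower at day 14 (-1.01 ± 0.13, adjusted p = 4.99e-05). Aldh16a1 had 106, 125 and 125 CPM in WT and 62.6, 59.4 and 51.5 CPM in KO at day 7, and 82.3, 142 and 120 CPM in WT and 59.8, 61.6 and 71.4 CPM in KO at day 14. It too was apart on both days and fell by 1.03 ± 0.16 (adjusted p = 0.000246) and 0.84 ± 0.16 (adjusted p = 0.00269) on the log2 scale. Both genes were called in every fit without 1 library of the day.

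Aldh6a1, the methylmalonate semialdehyde dehydrogenase of valine breakdown, had 23.7, 34.6 and 23.3 CPM in WT and 12.7, 12.4 and 11.8 CPM in KO at day 7, and 22, 29.6 and 20.6 CPM in WT and 15, 19 and 13 CPM in KO at day 14. The KO libraries lay below the WT libraries on both days, and at day 2 as well, at 24 ± 3.09 against 30.6 ± 2.73 CPM. It fell by 1.14 ± 0.18 on the log2 scale at day 7 (adjusted p = 0.000206) and by 0.62 ± 0.18 at day 14 (adjusted p = 0.0344), where the call was lost without WT replicate 2 (0.177), KO replicate 1 (0.124) or KO replicate 3 (0.181). Aldh7a1, which acts in lysine breakdown, rose at day 7 from 7.98 ± 0.0483 to 11.6 ± 2.37 CPM (log2 fold change 0.53 ± 0.17, adjusted p = 0.0369), and the call was lost without any 1 of 5 libraries (0.0734 to 0.19), KO replicate 3 being the exception. Aldh4a1, of proline breakdown, had a log2 fold change of 0.89 ± 0.39 at day 7 (adjusted p = 0.138) and 1.12 ± 0.40 at day 14 (adjusted p = 0.107), with all KO libraries above all WT libraries on both days. It was called under the replicate block at day 7 (0.95, adjusted p = 0.0108) and day 14 (1.19, adjusted p = 0.00733), at day 7 with only the groups compared (0.0352) and at day 14 by DESeq2's Wald test (0.0193).

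The 10 members with the highest level per length were, in order, Aldh1b1, Adh1, Akr1a1, Adh6a, Dhrs11, Aldh9a1, Akr1c13, Aldh1a1, Aldh18a1 and Akr1c12, from 217 down to 44.1 CPM per kilobase. Of these, Aldh1a1 was called by edgeR with all libraries fitted, while Aldh1b1, Akr1c12 and Akr1c13 were called in other settings. Aldh1b1, a mitochondrial enzyme of small aldehydes that is also used as a marker of crypt progenitors, had 522 ± 103 CPM in WT and 341 ± 85.6 CPM in KO at day 7 (log2 fold change -0.61 ± 0.22, adjusted p = 0.0594) and 584 ± 195 and 393 ± 17.6 CPM at day 14 (-0.57 ± 0.22, adjusted p = 0.122). Its KO libraries were below its WT libraries on both days, and DESeq2's Wald test called it at day 7 (adjusted p = 0.0326). It was also called at day 7 under the replicate block (0.0234) and at a mean count of at least 50 (0.0341), and without a filter on both days (0.0111 and 0.0344). Aldh9a1, of carnitine synthesis, had log2 fold changes of 0.24 and 0.03, and Aldh18a1, of proline synthesis, of -0.18 and -0.04. Dhrs11, a ketone reductase, had 0.15 and 0.10.

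The remaining 25 tested members had log2 fold changes of -0.42 to 0.59 at day 7 and of -0.51 to 0.86 at day 14, and none was called in the fit of all libraries. Without WT replicate 1 of day 14 Aldh1l1, of folate metabolism and named after its values were seen, was called lower at day 14 (log2 fold change -0.59, adjusted p = 0.0255, against -0.43 and 0.121 with it). The 5 tested short-chain dehydrogenases outside retinoid metabolism, Dhrs11 included, were not called by edgeR with all libraries fitted, though Dhrs7, named after its values were seen, was called at day 7 where the mean count had to reach 50. Dhrs13os was not called, a gene that shares 15.9% of its exon bases with Dhrs13 and 21.7% with Phf12 on the opposite strand. The 11 members that were not tested had at most 16 counts in any library, and 3 of them (Rdh8, Dhrs2 and Dhrs7c) had 0 counts throughout.

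**Figure D4:**
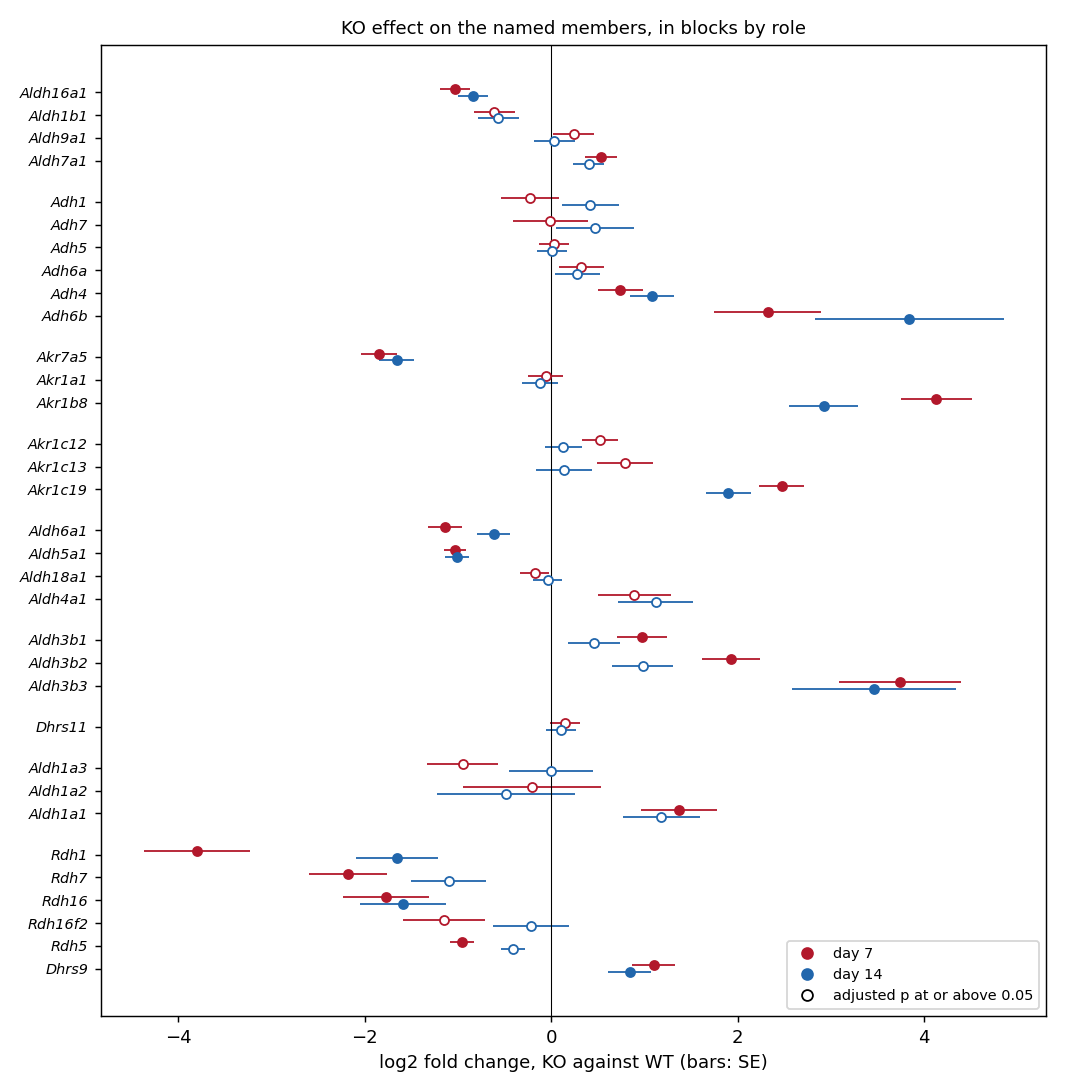
KO against WT log2 fold change (horizontal axis) with its SE for the 33 tested members named by rule, in blocks by role, at day 7 (red) and day 14 (blue). Filled points have an adjusted p under 0.05. Akr1b8 lies farthest to the right and Rdh1 farthest to the left at day 7, and each filled day 14 point lies on the same side of 0 as its day 7 point.

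Many members lie in clusters of neighbouring copies. The Akr1c cluster (chr13:4049011-4586541) holds 8 members and 5 tested ones, of which Akr1c19 was called by edgeR with all libraries fitted. The Akr1b cluster (chr6:34302434-34423142) holds 4 members, of which Akr1b8 was. The Adh cluster (chr3:138217760-138455499) holds 6 members, of which Adh4 and Adh6b were called higher. Adh6b passed the count filter only through KO libraries, so its calls support nothing. In the Rdh cluster (chr10:127759721-127888817) 3 of 6 tested members fell at day 7, and its other tested genes, Rdh16f1, Rdh9 and Rdh16f2, were not called in that fit. The 3 genes of the Aldh3b cluster (chr19:3913491-3981646) were called higher at day 7, Aldh3b3 with the limit above. Of all tested genes 7.11% were called higher and 10.2% lower at day 7. Fitted changes in a cluster often shared a sign. At day 7 the 6 tested Rdh genes were all below 0, and the 5 tested Akr1c genes were all above 0, at 0.29 to 2.47. Rdh16f1 shares exons with Rdh9 and Rdh1, so the 6 Rdh values are not independent. Whether neighbours differ from each other was not tested.

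Counting could mix some of these copies, or count the same fragments for more than 1 of them. Of the stretches of 100 bases in their transcripts, 99.1% of those of Rdh16f1 and 63.5% of those of Rdh9 also occur in another gene. Much of this lies in exons annotated to both genes. Rdh16f1 shares 83.2% of its exon bases with Rdh9 and 16.8% with Rdh1, on the same strand. Fragments there were counted for each gene, so Rdh16f1 and Rdh9 are uncertain. The share of stretches was 14% for Aldh3b2, 6.73% for Aldh3b3, 11.5% for Akr1c12, 9.36% for Akr1c13, 10.5% for Rdh1 and 7.75% for Rdh16. Strand was not used, and a fragment that overlapped several genes added to the count of each. Aldh4a1 shares 32.5% of its exon bases with Gm21969 and Rdh5 shares 25.6% with Bloc1s1, both on the same strand. Akr1b7 shares 27.2% with Gm13857, Aldh6a1 18.6% with Bbof1 and Aldh5a1 14.1% with 4932702P03Rik, all on opposite strands.

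**Figure D5:**
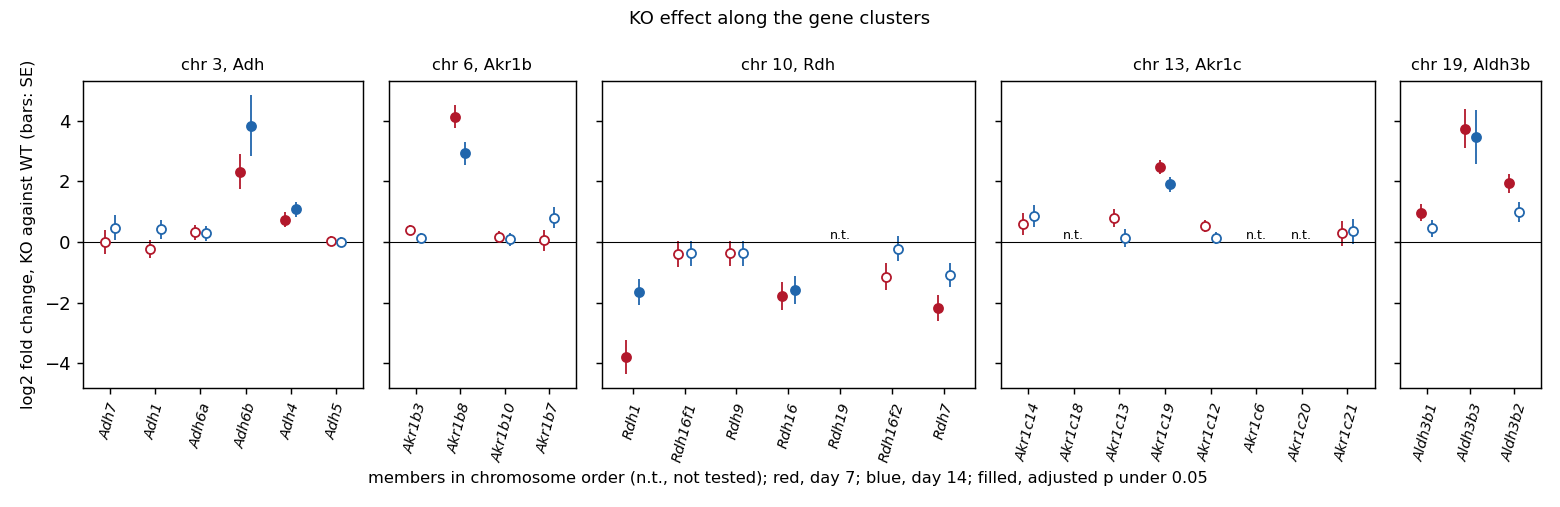
KO against WT log2 fold change with its SE (vertical axis) for the members of 5 gene clusters in chromosome order (horizontal axis), at day 7 (red) and day 14 (blue), with filled points for an adjusted p under 0.05 and n.t. for members that were not tested. Akr1c19 and Akr1b8 stand above their neighbours, the 3 Aldh3b genes lie above 0 and the points of the Rdh cluster lie below 0.

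Genes of related function were followed in 2 lists. Of 15 NRF2 target genes that are not members, 11 rose at day 7 and 1 at day 14, and none fell. Their median log2 fold change was 1.21 and then 0.36. Among all tested genes 7.11% were called higher and 10.2% lower at day 7, and 3.23% and 4.69% at day 14. Their summed level was 946 to 1159 CPM in WT and 2073 to 4419 CPM in KO at day 7, and 810 to 1262 CPM and 1546 to 2001 CPM at day 14. The gene called on both days was Gstm1, a glutathione transferase, with 54.8 ± 14.3 CPM in WT and 1110 ± 580 CPM in KO at day 7. Nqo1, a quinone reductase, and Gclc, of glutathione synthesis, rose at day 7 by 1.49 and 1.31 on the log2 scale (adjusted p = 0.00232 and 0.000121). Of 10 tested carbonyl-metabolising enzymes outside the 5 families, Cbr1, Cbr3 and Xdh rose at day 7 and Cbr4, Hsd17b6 and Adhfe1 fell. At day 14 Cbr3 rose and Cbr4 and Hsd17b6 fell. Cbr3, a carbonyl reductase, went from 0.528 ± 0.036 to 57.3 ± 30.1 CPM at day 7 (log2 fold change 6.74, adjusted p = 8.87e-07). Cbr4, a mitochondrial carbonyl reductase, went from 10.2 ± 1.25 to 2.17 ± 0.377 CPM (-2.24, adjusted p = 3.02e-07).

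The cell type markers of the crypts shifted at the same time. At day 7 all 13 enteroendocrine markers rose and all 6 Paneth cell markers and 7 of 10 stem cell markers fell, and at day 14 13, 1 and 2 of them were called in these directions. The enteroendocrine markers are all genes that the paper lists as higher in KO at the last time point of these same data. Their tally at day 14 was thus set by the choice of list. The tally at day 7 comes from the same list, so it is not independent of that choice. Of 12 enterocyte markers 2 rose and 1 fell at day 7 and 1 rose at day 14, with median log2 fold changes of 0.56 and 0.74. The summed Paneth markers stood at 8952 to 14925 CPM in WT and at 1402 to 3957 CPM in KO at day 7. Immune markers summed to 80.3 to 183 CPM in WT and 104 to 171 CPM in KO at day 7, and stromal markers to 26.5 to 64.6 and 48 to 94.3 CPM, with none of the marker genes at 0 in all libraries. No immune marker was called, and 2 of 10 stromal markers rose at day 7, Vim by 1.08 (adjusted p = 0.0025) and Pecam1 by 1.29 (adjusted p = 0.0188) on the log2 scale. Of the goblet cell markers 3 of 8 fell at day 7 and 1 fell at day 14, and of the tuft cell markers 2 of 7 tested fell at day 7. Proliferation genes had 1 of 10 lower at day 7 and 2 at day 14. The part of these shifts in the members' changes was not tested.

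WT crypts were also compared between days, and few members passed the test. Of the 58 tested members, 46 were lower in WT at day 7 than at day 2 and 44 were lower at day 14 than at day 2 by the fitted fold change, against 48.8% and 48.9% of all tested genes. The median was -0.29 in both comparisons, against 0.01 over all genes. Both comparisons share the WT libraries of day 2, and these tallies are a description, not a test. No member was called between days 7 and 2 (0.553% of all genes were called), although 20 members (34.5%), and 4792 of all 21349 genes, had an unadjusted p under 0.05 and DESeq2's Wald test called 9 members and 1549 genes. Between days 14 and 2 Akr1b7 fell by 1.70 ± 0.35 (adjusted p = 0.0341) and Akr1c19 by 0.93 ± 0.23 (adjusted p = 0.0469) on the log2 scale, where 1.61% of all genes were called, and these 2 were named after their values were seen. The Akr1b7 call was lost without WT replicate 1 or 3 of day 2 (0.144 and 0.122) or WT replicate 1 or 2 of day 14 (0.122 and 0.0634), and the Akr1c19 call without WT replicate 1 or 3 of day 2 (0.181 and 0.123) or WT replicate 1 or 3 of day 14 (0.199 and 0.137). Between days 14 and 7 no member was called by edgeR or by DESeq2's Wald test, 5 members and 1105 genes had an unadjusted p under 0.05, and 0.0796% of all genes were called. These calls over all genes rest on single libraries. With 1 library left out they ran from 0 to 535 between days 7 and 2 in place of 118, from 22 to 712 between days 14 and 2 in place of 343, and from 0 to 10 between days 14 and 7 in place of 17. Without WT replicate 1 of day 2 the counts were 0 and 22 in the first pair of comparisons, and without WT replicate 2 of day 2 they were 535 and 712. The summed enterocyte markers were 15397 to 34706 CPM in WT at day 2, 11541 to 14165 at day 7 and 5700 to 14361 at day 14. Their part in the difference was not tested.

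The KO effect of day 7 differed from that of day 2 in 9 of 58 members, where 4.37% of all tested genes were called. The difference, as log2 fold change at day 7 minus that at day 2, was 3.75 ± 0.50 for Akr1b8 (adjusted p = 0.000621), 2.55 ± 0.33 for Akr1c19 (0.00023), 2.11 ± 0.49 for Aldh3b2 (0.0181) and 1.25 ± 0.32 for Dhrs9 (0.0335). It was -3.79 ± 0.73 for Rdh1 (0.00576), -1.74 ± 0.27 for Akr7a5 (0.001), -0.97 ± 0.17 for Aldh5a1 (0.00335), -0.90 ± 0.23 for Aldh16a1 (0.0311) and -0.79 ± 0.18 for Rdh5 (0.0189). Over all genes 934 were called, and 431 to 1295 with 1 library left out, the lowest without KO replicate 1 of day 7, which called 6 members. Without WT replicate 1 or KO replicate 1 of day 2 or any 1 WT library of day 7 there were 500 to 585. The Rdh1 value rests on 5 KO counts at day 7. The call of Aldh16a1 was lost without any 1 of 9 of the 12 libraries (adjusted p 0.0516 to 0.0777), WT replicate 3 of day 2, WT replicate 1 of day 7 and KO replicate 3 of day 7 being the exceptions. That of Dhrs9 was lost without WT replicate 3 of day 2, any KO library of day 2, WT replicate 1 or 3 of day 7 or KO replicate 1 of day 7 (0.0586 to 0.107). That of Aldh3b2 was lost without KO replicate 3 of day 2 (0.0541) or KO replicate 1 of day 7 (0.0502), and that of Rdh5 without WT replicate 2 of day 7 (0.0564). The same fit called no member for day 14 minus day 7, where 0% of all genes were called, 3 members had an unadjusted p under 0.05 and DESeq2's Wald test called none. Of the 18 members called at day 7, 16 had a smaller fitted change at day 14, Adh4 and Adh6b being the exceptions. The Adh6b value of day 14 rests on 1 WT count.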

How the data were processed

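RNA-seq of small intestinal crypts from 18 mice was used. The authors made total RNA libraries after ribosomal RNA removal, aligned them with STAR 2.7.3 to mm10 and counted fragments per gene with featureCounts 1.6.4. Per the file headers, the deposited values are raw counts, GENCODE release 23 was the annotation, strand was not used, a fragment over several genes added to each of them, and multi-mapping fragments were dropped. Totals were 12844642 to 31493484 counts per library (median 21266804.5), and counting intervals cover counting error only.

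Groups were genotype by day, with 3 mice each. The 20 genes the study left out were left out here. Genes were kept by filterByExpr, scaled by TMM and fitted over all 18 libraries with 1 mean per group by edgeR 4.0.16's robust quasi-likelihood test in R 4.3.3, with Benjamini-Hochberg adjustment over 21349 genes and a threshold of 0.05. SE is the log2 fold change divided by the square root of F. The members and gene lists were chosen with earlier results of these data known. Named members are those called for a KO effect or a difference of KO effects, the 10 highest per length, all retinaldehyde and alcohol dehydrogenases, and uncalled members with a log2 change of at least 1. Alternatives were DESeq2 1.42.0's Wald test and size factors, other filters, the 20 genes kept, the 20 most abundant genes left out, only the groups compared, a replicate block, and each library left out in turn.

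Same-numbered KO and WT libraries deviated together only at day 14 by the limit of 0.1 for every pair. No label gives a pairing, and libraries of unlike number were not compared. Pearson's r across genes was 0.227, 0.18 and 0.159 for the 3 pairs of day 14, against 0.048, 0.158 and 0.381 at day 2 and -0.159, 0.206 and 0.079 at day 7.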

Additional observations from a re-analysis of the deposited data

Results flagged for a closer look

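The KO effect differed between day 7 and day 2 for 9 of 58 members by the test of the difference itself (quasi-likelihood test of edgeR, Benjamini-Hochberg adjustment). Over all tested genes 4.37% were called. As log2 fold change at day 7 minus that at day 2, the difference was 3.75 for Akr1b8, 2.55 for Akr1c19, 2.11 for Aldh3b2 and 1.25 for Dhrs9, which were higher in KO at day 7. It was -3.79 for Rdh1, -1.74 for Akr7a5, -0.97 for Aldh5a1, -0.90 for Aldh16a1 and -0.79 for Rdh5, which were lower in KO at day 7. In the 12 fits that left out 1 library, the call was lost in 9 for Aldh16a1, 7 for Dhrs9, 2 for Aldh3b2 and 1 for Rdh5. The Rdh1 value rests on 5 KO counts at day 7.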

How the results depend on the processing

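The members called at day 2 (0) and for day 14 minus day 7 (0) stayed at 0 in all settings tried. At day 7 the 18 called members became 16 to 22 in the other settings and 14 to 20 with 1 library left out, and the 9 called for day 7 minus day 2 became 9 to 13 and 6 to 13. At day 14 the 12 became 7 when only the groups compared were fitted and 6 to 11 with 1 library left out. In WT between days 7 and 2 the count of 0 became 9 by DESeq2's Wald test, 4 without a filter, 9 with only the groups compared and 0 to 3 with 1 library left out (3 without WT replicate 2 of day 2). Between days 14 and 2 the 2 became 9, 7 and 0 in these settings, 6 where the mean count had to reach 50, and 0 to 4 with 1 library left out. Over all genes, the 118 and 343 called in these WT comparisons became 1549 and 1397 by the Wald test, 1012 and 1011 without a filter, 494 and 770 at a mean count of 50, and 576 and 28 with only the groups compared, and leaving out the 20 most abundant genes gave 288 between days 7 and 2. The 7 of day 2 between KO and WT became 2 to 16, and the 17 in WT between days 14 and 7 became 4 to 59. Leaving out 1 library gave 0 to 535, 22 to 712, 3 to 4 and 0 to 10 in these 4 comparisons. Calls lost when only the groups compared were fitted were those of Adh4 (adjusted p = 0.0606), Aldh6a1 (0.0721) and Rdh16 (0.0576) at day 14, where Adh6b and Aldh3b3 were not tested, Aldh7a1 at day 7 (0.0758), Dhrs9 for day 7 minus day 2 (0.0508), and Akr1b7 (0.126) and Akr1c19 (0.174) in WT. Without a filter those of Aldh1a1 (0.0947) and Aldh7a1 (0.0795) at day 7 and Rdh16 at day 14 (0.0752) were lost.

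With the replicate number as a block, 22 members were called at day 7 and 14 at day 14, 13 for day 7 minus day 2, and 0 at day 2 and for day 14 minus day 7. Over all genes the block gave 4225, 2106 and 1366 calls in place of 3690, 1690 and 934. On every day the labels give only a number, so the block stands for no known pairing. Aldh1b1, Aldh4a1, Rdh16f2 and Akr1c14 were gained by the block at day 7. Aldh1a3 at day 14 was -0.01 with the block.

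Directions turned only for members that were not called, with 1 library left out or without a filter, and for Aldh1a3 with the block. With 1 library left out, the day 7 log2 fold change ran from -0.07 to 0.16 for Adh5, -0.33 to 0.22 for Adh7, -0.16 to 0.12 for Akr1a1 and -0.56 to 0.11 for Aldh1a2. That of day 14 ran from -0.11 to 0.21 for Adh5, -0.04 to 0.49 for Adh6a, -0.26 to 0.07 for Akr1a1, -0.09 to 0.65 for Akr1c13, -0.22 to 0.18 for Aldh18a1, -1.15 to 0.18 for Aldh1a2, -0.26 to 0.24 for Aldh1a3, -0.19 to 0.32 for Aldh9a1, -0.08 to 0.29 for Dhrs11 and -0.56 to 0.09 for Rdh16f2. Without a filter Adh5 and Aldh1a3 were both at -0.01 at day 14. Depth limits Adh6b, Aldh3b3 and Rdh1, whose ratios rest on 1 to 11 counts in the lower group.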
